A study of Homo sapiens with 4 samples.

Results

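HEK293 cells given a control RNA were compared with untreated HEK293 cells 24 h later, through 1 Illumina Human-6 bead array each, 2 of the 4 arrays of the series. HEK293 is a human embryonic kidney line. The control RNA group held cells transfected by means of Lipofectamine, a cationic lipid reagent, and the untreated group held cells with no stated transfection. The other 2 arrays, MIF siRNA 1# and MIF siRNA 2#, held cells transfected with small interfering RNA against the cytokine gene MIF, and enter here only as values beside the comparison. The sequence and dose of the control RNA are not given in the sources used here. Since the untreated cells are not described as having received the reagent, its part and that of the control RNA cannot be told apart. With 1 array a side there was no replicate check and no test, and nothing in the labels says how many cultures stood behind each array.

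Cationic lipids carry RNA into cells mainly by endocytosis, and part of the cargo escapes into the cytosol. There, double-stranded RNA can be loaded into Argonaute proteins, or it can be detected by RIG-I-like receptors and protein kinase R, while Toll-like receptors watch over endosomes. Detection can lead through the adaptor MAVS and the kinase TBK1 to interferons and then to interferon-stimulated genes. HEK293 cells are known to express few Toll-like receptors and are widely used for transfection. A scrambled or unrelated RNA given with the same reagent is the usual control for knockdown by siRNA.

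The 2 arrays were close to each other. Of 13755 genes kept after a filter on dim signal, 71.6% lay within 1.1-fold, and 97.9% were less than 25% higher and less than 20% lower in control RNA, the same ratio either way. The log2 difference of control RNA minus untreated had a median of -0.0057, an SD of 0.134 over genes, and a range of -0.63 to 0.80. Genes at least 1.5-fold higher in control RNA numbered 9 (0.0654% of kept genes) and those at least 1.5-fold lower numbered 4 (0.0291%). At that smaller fold, 163 genes were at least 25% higher (1.19%) and 128 at least 20% lower (0.931%). At 2-fold they were 0 and 0. A gene was simply higher in control RNA, by any amount, in 47.9% of cases and lower in 51.9%, which is the background for every count of list members given here.

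The other pairs of arrays were farther apart. Of the same 13755 kept genes, 13 stood past 1.5-fold in either direction between control RNA and untreated (0.0945%). Between the MIF siRNA arrays 1# and 2# there were 295. For 1# the counts were 1448 against untreated and 1789 against control RNA. For 2# they were 248 against untreated and 397 against control RNA. By this count both MIF siRNA arrays lay farther from control RNA than from untreated cells. The SD of the log2 difference was 0.229 between 1# and 2#, above the 0.134 between control RNA and untreated. MIF itself, the target of the siRNA, read 22463 in control RNA, against 21908 in untreated cells. It read 11614 in 1# and 17040.2 in 2#. Signals here and below are quantile-normalized intensities of the brightest probe of a gene, and differences are log2 of the control RNA signal minus log2 of the untreated signal.

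Marker genes of the labelled cell line and of other cell types were read. Keratins KRT8 and KRT18 and vimentin (VIM), structural proteins of this line, read 11034, 17367 and 5965 in control RNA, against 11586, 18466 and 6322 in untreated cells. Of 23 measured genes of embryonic kidney and HEK293 character, 22 passed the filter on dim signal, with a summed signal of 46766 in control RNA and 48314 in untreated cells. KRT8, KRT18 and VIM are members and made up most of that sum, and the median signal of the kept members was 256. The kidney factor PAX8 passed near background, at 94.9 in control RNA and 86.8 in untreated cells. PAX2, a kidney transcription factor, did not pass, at 68.8 in control RNA and 74.6 in untreated cells. Markers of blood cells passed in 5 of 14 cases, those of fibroblasts and endothelium in 10 of 14, and those of hepatocytes and other epithelia in 4 of 14. Of all 18774 genes measured, 13755 passed the same filter, so passing alone does not mark a cell type. The leucocyte gene PTPRC read 96.6 in control RNA and 95.4 in untreated cells, close to the median probe. The kept blood markers summed to 587 in control RNA and 579 in untreated cells. For fibroblasts and endothelium the sums were 1536 in control RNA and 1495 in untreated cells, and for hepatocytes and other epithelia 604 in control RNA and 599 in untreated cells. Median signals of the kept markers were 91.8 for blood, 85.2 for fibroblasts and endothelium and 152 for the last group, with the filter at 75.6. The blood and fibroblast sums thus came from signals near background, and their closeness does not bear on other cell types.

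How far a value can be read depended on brightness. As deposited, the control RNA array was brighter, with a median of 74.5 over 48701 probes, against 71.9 on the untreated array. Over kept genes the deposited difference had a median of 0.075, and 72.4% of them were higher in control RNA. The excess grew with brightness. When all 18774 genes were split into 10 equal groups by mean signal, the deposited median was 0.056 in the dimmest and 0.123 in the brightest group. After quantile normalization the medians of the same groups lay between -0.012 and 0.010. Every direction below is therefore relative to a scale on which the whole distribution of the arrays was made equal.

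**Figure D1:**
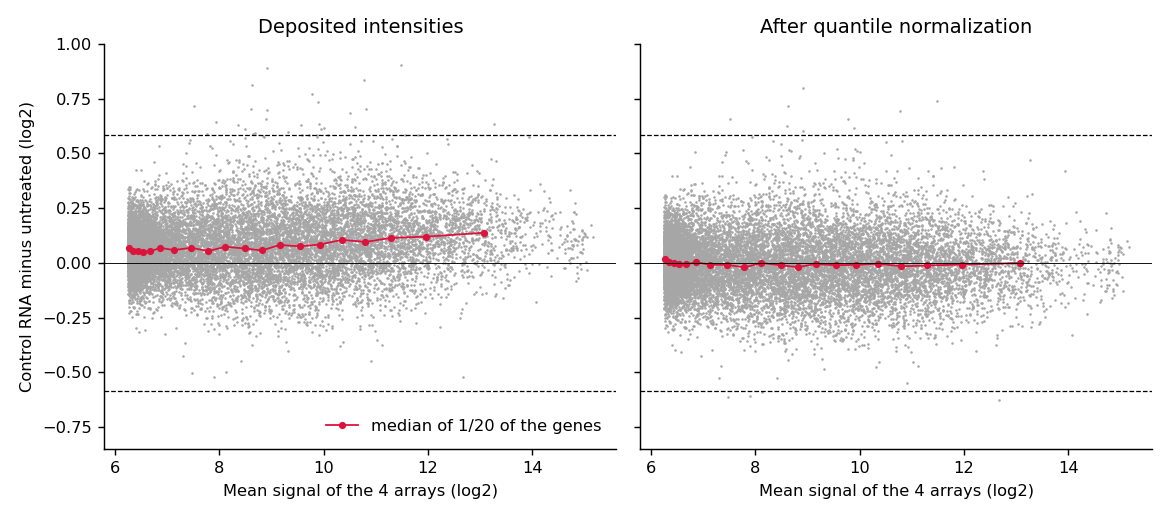
Log2 difference of control RNA minus untreated (vertical) against the log2 mean signal of the 4 arrays (horizontal), for 13755 kept genes, with deposited intensities on the left and quantile-normalized ones on the right. Red points are medians of equal groups of genes, and dashed lines mark 1.5-fold. The deposited medians lie above 0 and climb at the bright end, while the normalized medians stay near 0.

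The spread of the normalized difference was not even. Its SD was 0.106 in the dimmest group, 0.155 in group 7 and 0.129 in the brightest. The share of genes at least 25% higher was 0.160% in the dimmest group, 2.29% in group 7, at signals of 252 to 482, and 0.852% in the brightest. Genes at least 20% lower followed the same course, with 0.160%, 1.81% and 0.852%. Large differences were thus most frequent at middle signals and rare where the signal was mostly background.

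**Figure D2:**
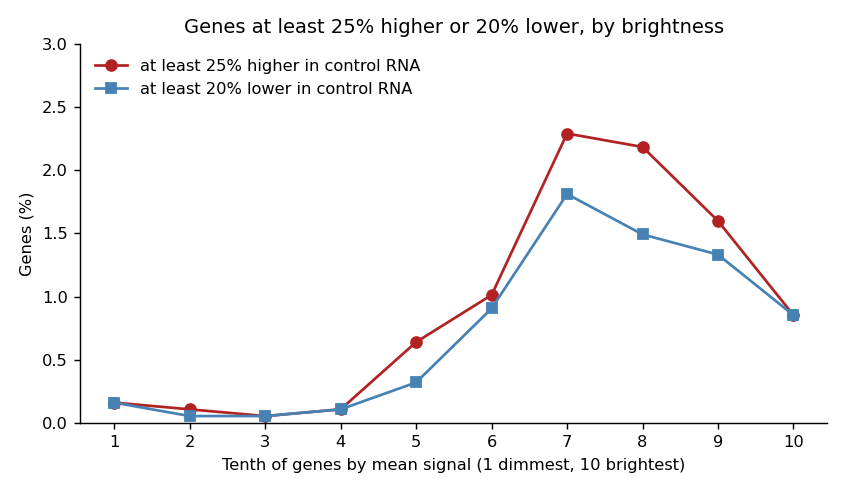
Share of genes at least 25% higher (red circles) or at least 20% lower (blue squares) in control RNA, in percent, in 10 equal groups of all 18774 genes ordered by mean signal. Both shares are highest in group 7, at 2.29% and 1.81%, and both are 0.160% in the dimmest group.

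Families that HEK293 cells are not known to use gave a picture of the floor. Of 358 olfactory receptor genes measured, 73 passed the filter, none was past 1.5-fold, and over all 358 the difference ran from -0.27 to 0.29 with an SD of 0.104. OR2J2, the highest of the kept ones, read 123 in control RNA and 104 in untreated cells, a difference of 0.23. OR1G1, the lowest, read 78.8 in control RNA and 91.1 in untreated cells, a difference of -0.21. Taste and vomeronasal receptors (29 measured), keratin-associated proteins (75) and defensins with late cornified envelope genes (44) had SDs of 0.11, 0.11 and 0.11. Single differences of that size thus occurred between these arrays among genes with signals near background.

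Different probes of a gene gave a second view of measurement error within the arrays. For 1872 genes with at least 2 probes above the median probe, the differences of the brightest and the second probe had the same sign in 993 genes, with a Pearson correlation across genes of 0.17. The agreement was weakest where the second probe was dim. In 4 equal groups of 468 genes by the signal of the second probe, the correlation was -0.0055, 0.064, 0.25 and 0.27 from dim to bright, and the same sign was seen in 50.4% to 56.8% of genes. Of 29 such genes whose brightest probe was at least 25% higher, the second probe was also higher in 20, with a median of 0.19. Of 22 whose brightest probe was at least 20% lower, it was also lower in 12, with a median of -0.0064. No gene with several bright probes was past 1.5-fold on each of them. Genes and probes are not independent replicates, and probes of a gene can read different transcripts.

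The genes highest in control RNA came from unrelated functions. FKBP2, a peptidyl-prolyl isomerase of the endoplasmic reticulum, read 696 in control RNA, against 399.9 in untreated cells, a difference of 0.80. It stood apart from all 3 other arrays, since 1# and 2# read 404 and 426. A second FKBP2 probe differed by 0.84 and another one by 0.016. MYDGF, a growth factor that passes through the secretory pathway, read 4128 in control RNA, against 2471 in untreated cells, a difference of 0.74. Its MIF siRNA readings were 2195 and 2667, again near the untreated array. GAR1, a protein of the small nucleolar particles that guide pseudouridylation, read 618 in control RNA, against 376 in untreated cells, a difference of 0.72, and 0.37 on its other bright probe. UNG, the glycosylase that removes uracil from DNA, read 2439 in control RNA, against 1509 in untreated cells, a difference of 0.69. Much dimmer UNG probes differed by 0.23 and 0.36.

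Next in rank, RAC3, a small GTPase, read 1009 in control RNA and 639 in untreated cells (0.66). Here the untreated array was the one apart, as the MIF siRNA arrays read 917 and 923. ENSA, an inhibitor of a phosphatase that opposes mitotic phosphorylation, read 255 in control RNA and 162 in untreated cells (0.66), but its second probe differed by only 0.021. The forkhead factor FOXJ3 read 466 in control RNA and 302 in untreated cells (0.63), and the RNA-binding protein HNRNPA3 read 1404 in control RNA and 916 in untreated cells (0.62). ZFYVE21 read 639 in control RNA and 421 in untreated cells (0.60), and DDAH2 read 290.1 in control RNA and 195 in untreated cells (0.58), which is just short of 1.5-fold. In FOXJ3 and DDAH2, as in RAC3, both MIF siRNA arrays lay between the control RNA and untreated values.

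At the other end stood RNA28SN5, a 28S ribosomal RNA gene, with 4497 in control RNA, against 6936 in untreated cells, a difference of -0.63. Ribosomal RNA lacks the regular poly(A) tail from which labelling of this kind usually starts. SNORA25, a guide RNA for pseudouridylation, read 202 in control RNA, against 308 in untreated cells (-0.61). IGFBP4, which binds insulin-like growth factors outside the cell, read 206 in control RNA, against 310 in untreated cells (-0.59), with both MIF siRNA arrays near the untreated one at 301 and 295. PRRC2C read 1553 in control RNA, against 2270 in untreated cells (-0.55), and LUC7L3, a splicing factor of the U1 particle family, read 131 in control RNA, against 189 in untreated cells (-0.53). Of these, RNA28SN5, SNORA25 and IGFBP4 were past 1.5-fold. The fourth gene past it, the open reading frame C9orf163, is named after its value was seen and read 129 in control RNA, against 197 in untreated cells (-0.61).

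The remaining low genes were THBS1, ANKRD50, ASCC3, TMEM86B and ATP1B1. Thrombospondin 1 (THBS1), a matrix glycoprotein, read 364 in control RNA, against 524 in untreated cells (-0.52), and was lower still in the MIF siRNA arrays, at 185 and 299.7. ANKRD50 read 431 in control RNA, against 603 in untreated cells (-0.48). The helicase gene ASCC3 read 1057 in control RNA, against 1472 in untreated cells (-0.48), but its other bright probes differed by 0.076 and -0.11. TMEM86B, near background, read 128 in control RNA, against 178 in untreated cells (-0.47). For ATP1B1, the beta subunit of the sodium pump, the brightest probe read 1663 in control RNA, against 2304 in untreated cells (-0.47), while the second bright probe went the other way, at 1051 in control RNA and 850 in untreated cells (0.31). ASCC3 and ATP1B1 were thus genes whose probes disagreed in sign.

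**Figure D3:**
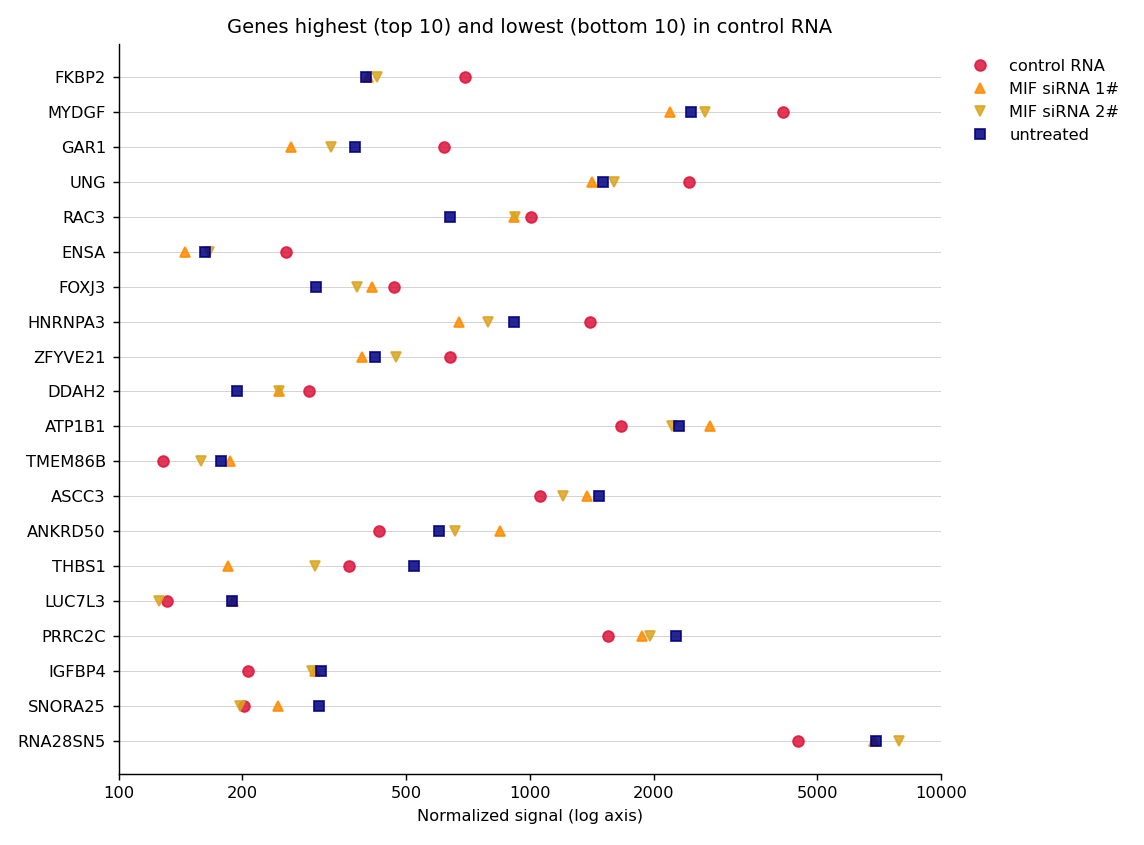
Normalized signal (log axis) of the 10 genes highest and the 10 lowest in control RNA by log2 difference, with 1 point per array. All 10 high genes show the control RNA point to the right of the 3 other arrays, with the MIF siRNA points between it and the untreated one for RAC3, FOXJ3 and DDAH2. Of the 10 low genes, 7 show it to the left of the 3 other arrays, all but SNORA25, LUC7L3 and THBS1. The genes were chosen by this difference.

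The 5 brightest genes differed little. RPS3 and RPS29, proteins of the small ribosomal subunit, differed by 0.074 and 0.039, TPT1, a translationally controlled growth protein, by 0.10, the redox protein TXN by -0.13 and the elongation factor EEF1A1 by -0.063. The dimmest of these readings were 32192 in control RNA (EEF1A1) and 33410.2 in untreated cells (TPT1). The sign was not fixed for EEF1A1, at 0.0025 under one alternative, nor for RPS29, at -0.0077 under another. A second RPS29 probe differed by -0.054.

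Gene lists were then described by their medians. Of 78 lists and families, 76 had at least 5 kept members, and their medians ran from -0.087 to 0.086, beside -0.0057 for all kept genes. In 58 lists the median was within 0.05 of 0, in 6 it was above 0.05 and in 12 it was below -0.05. No list reached 0.1 either way. The low medians were low relative to other genes only. On the deposited scale, where the median of kept genes was 0.075, just 2 of the 12 low lists had a median below 0, namely LXR targets with lipid efflux at -0.018 and collagens at -0.0017.

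**Figure D4:**
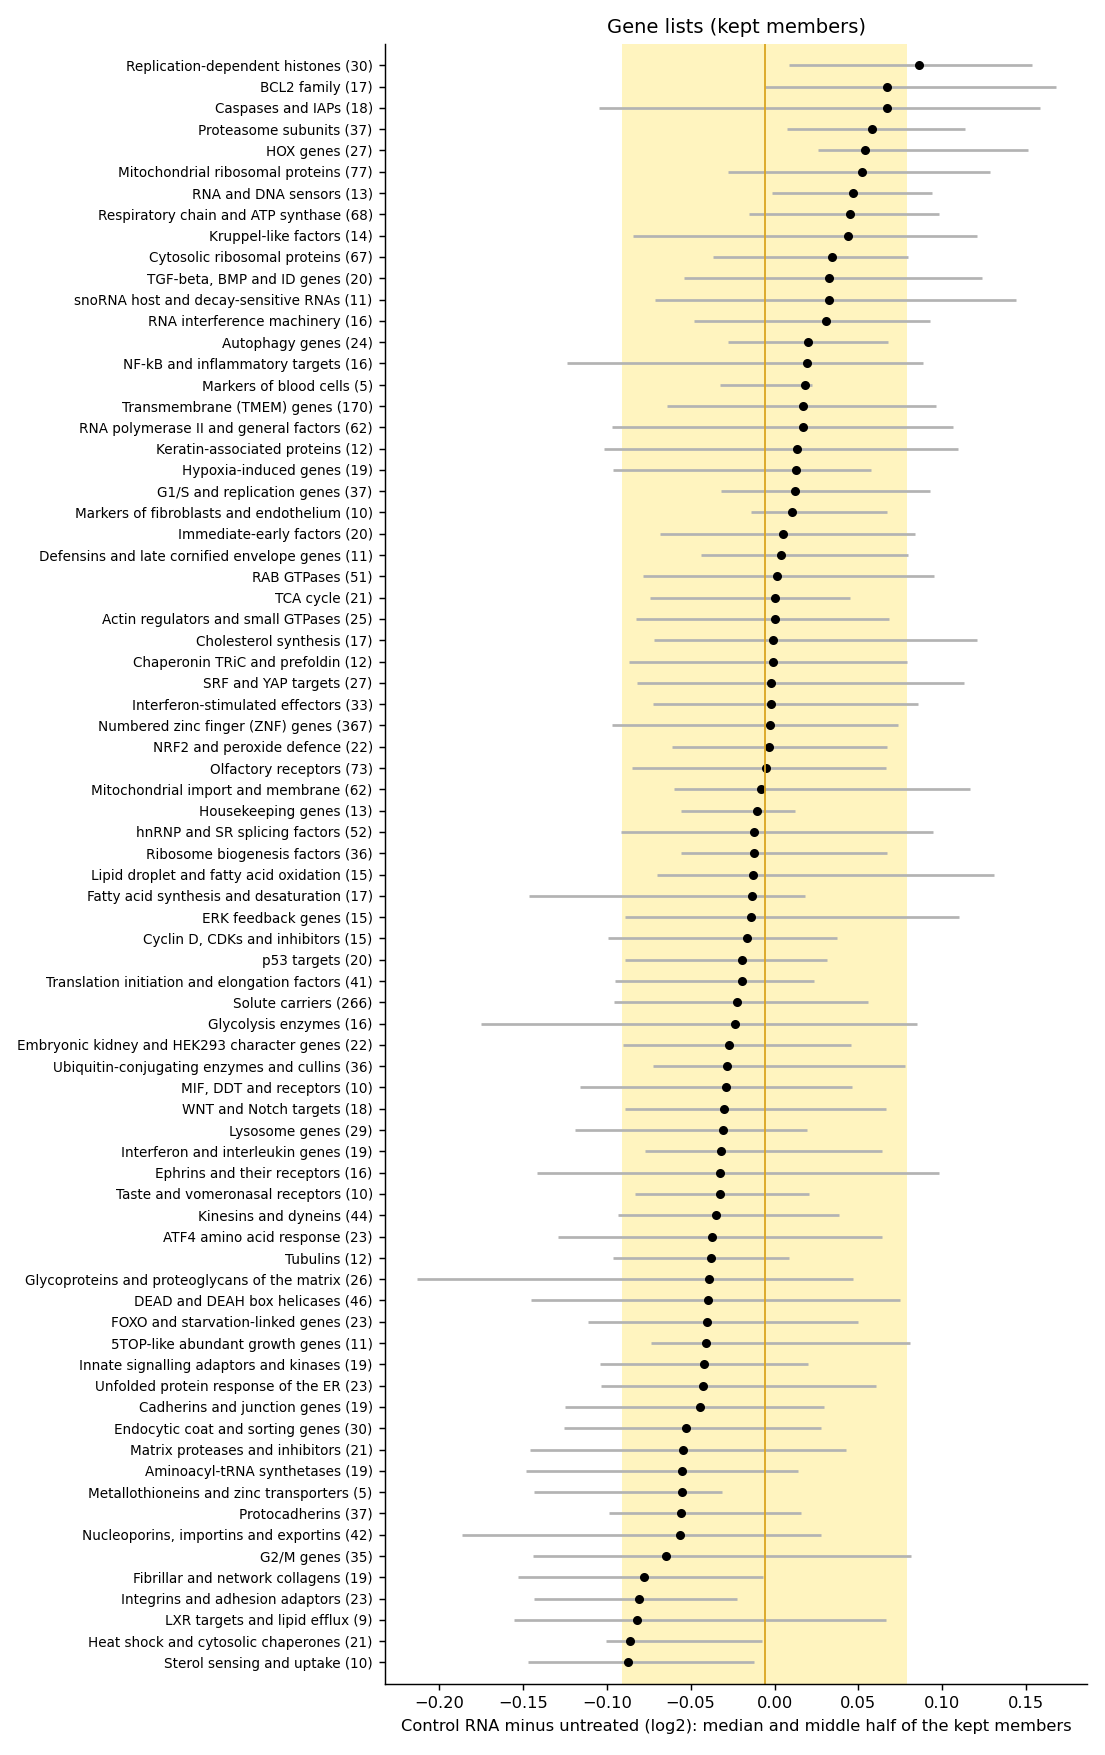
Median (points) and central 50% (grey lines) of the log2 difference of control RNA minus untreated over the kept members of 76 gene lists, with the number of kept members in brackets. The orange line and yellow band give the same for all kept genes. Histones, at 0.086, and sterol sensing genes, at -0.087, are at the ends, and the spread within each list is wider than the distance between most medians.

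Lists of genes along the known route of transfected RNA, from uptake to response, were read, while the RNA itself was not traced. Endocytic coat and sorting genes had a median of -0.053, with 9 of 30 kept members higher in control RNA and 21 lower. DNM2, the dynamin that pinches off vesicles, read 805 in control RNA and 1024 in untreated cells (-0.35), and the adaptor subunit AP2A1 read 442 in control RNA and 552 in untreated cells (-0.32). The early endosome GTPase RAB5B was higher, at 3211 in control RNA and 2842 in untreated cells (0.18). DNM2 and AP2A1 were the 2 members at least 20% lower, and none was at least 25% higher. Lysosome genes had a median of -0.031 (12 higher, 17 lower of 29). Among them the protease TPP1 read 1598 in control RNA and 1886 in untreated cells (-0.24). Autophagy genes had a median of 0.020 (15 higher, 9 lower of 24), with the ATG8 family gene GABARAPL1 at 3717 in control RNA and 2954 in untreated cells (0.33).

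Of 18 measured sensors of RNA and DNA, 13 passed the filter, 9 of them higher and 4 lower, with a median of 0.047. The abundant ones hardly differed. Protein kinase R (EIF2AK2) read 2007 in control RNA and 1990.3 in untreated cells (0.012), and the editing enzyme ADAR read 2972 in control RNA and 2975 in untreated cells. IFIH1, which encodes the sensor MDA5 of long double-stranded RNA, read 280.4 in control RNA and 263 in untreated cells (0.094). RIGI, the receptor of RNA with triphosphate ends, read 96.5 in control RNA and 109 in untreated cells (-0.18), near background. TLR3, TLR7 and TLR8, the endosomal receptors of RNA, read 102, 62.7 and 68.7 in control RNA and 105, 60.1 and 63.8 in untreated cells, and only TLR3 passed the filter. TLR9, the endosomal receptor of DNA, was the exception at 155 in control RNA and 109 in untreated cells (0.50), the only sensor at least 25% higher. The MIF siRNA arrays read 92.2 and 104 for TLR9, below the untreated value. Like RIGI, TLR9 was near background on every array but that of control RNA.

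Innate adaptors and kinases had a median of -0.042, with 6 higher and 13 lower of 19, and none at least 25% higher or 20% lower. The adaptor MAVS read 188 in control RNA and 203 in untreated cells (-0.11), the kinase TBK1 1305 in control RNA and 1406 in untreated cells (-0.11), and the factor IRF3 983 in control RNA and 1059 in untreated cells (-0.11). IRF7, which is itself interferon-induced, was the highest member at 850.5 in control RNA and 785 in untreated cells (0.12), but its second probe differed by -0.12. The interferon receptor chain IFNAR1 was the lowest at 426 in control RNA and 523 in untreated cells (-0.30). Interferon beta (IFNB1) did not pass the filter, with 62.5 in control RNA and 56.4 in untreated cells. Of 53 interferon and interleukin genes measured, 19 passed, with a median of -0.032, and the brightest of them, IL18, read 2325 in control RNA and 1930.4 in untreated cells (0.27).

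Interferon-stimulated effectors were balanced around 0. Of 37 measured, 33 passed the filter, 16 higher and 17 lower in control RNA, with a median of -0.0023. IFIT1 and MX1, antiviral proteins that rise steeply with interferon, read 335 and 196 in control RNA, against 344 and 193 in untreated cells. ISG15, a ubiquitin-like modifier, read 902 in control RNA, against 827 in untreated cells (0.12). The membrane tether BST2 stood out at 363 in control RNA, against 247 in untreated cells (0.56), and the ISG15 protease USP18 read 190.3 in control RNA, against 164 in untreated cells (0.22). In the other direction, the ligase-like gene HERC6 read 326 in control RNA, against 428 in untreated cells (-0.39). BST2 was the only effector at least 25% higher and HERC6 the only one at least 20% lower, and both MIF siRNA arrays were near the control RNA value for BST2, at 331 and 362.

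NF-kB and inflammatory targets had a median of 0.019 (9 higher, 7 lower of 16), with the feedback inhibitor TNFAIP3 at 159 in control RNA and 136 in untreated cells (0.23), and TNFAIP2 at 221 in control RNA and 269 in untreated cells (-0.29). The RNA interference machinery had a median of 0.031 (9 higher, 7 lower of 16). AGO2, the Argonaute that cleaves target RNA, read 1938 in control RNA and 1783 in untreated cells (0.12). DICER1, which cuts long double-stranded RNA into small RNA, read 1187 in control RNA and 1325 in untreated cells (-0.16). The helicase MOV10 read 1021 in control RNA and 1184 in untreated cells (-0.21). TSNAX, part of the nuclease that clears passenger strands, read 2487 in control RNA and 2079 in untreated cells (0.26). A second, dim DICER1 probe differed by 0.085. No kept member of these 2 lists was at least 25% higher or 20% lower.

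Lipid genes were examined because the reagent is a lipid. Sterol sensing and uptake genes had the lowest median of all lists, -0.087, with 2 higher and 8 lower of 10. SREBF2, the master factor of cholesterol synthesis, read 654 in control RNA and 836 in untreated cells (-0.36), NPC1, which exports cholesterol from lysosomes, 492 in control RNA and 569 in untreated cells (-0.21), and the sterol retention gene INSIG2 403 in control RNA and 448 in untreated cells (-0.15). The enzymes of cholesterol synthesis did not share that shift, with a median of -0.00084 and 8 higher and 9 lower of 17. PMVK read 936 in control RNA and 701 in untreated cells (0.42) and EBP 2826 in control RNA and 2222 in untreated cells (0.35), the 2 enzymes at least 25% higher. LXR targets with lipid efflux had a median of -0.082 over 9 genes, yet NR1H3, the LXR alpha receptor, was higher at 987 in control RNA and 752 in untreated cells (0.39). Fatty acid synthesis and desaturation genes had a median of -0.013 over 17.

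Heat shock proteins and cytosolic chaperones, which refold or hold damaged proteins, had a median of -0.086, with 5 higher and 16 lower of 21 kept members. The shift was small, and none was at least 25% higher or 20% lower. HSPA1B, the inducible HSP70, read 15230 in control RNA, against 18056 in untreated cells (-0.25). Its near-identical copy HSPA1A had a probe at 60.9 in control RNA and 52.5 in untreated cells, below the filter, so the HSPA1B probe may read both transcripts. HSP90AB1 read 11525 in control RNA, against 13108 in untreated cells (-0.19), STIP1, which links HSP70 to HSP90, 7159 in control RNA, against 7964 in untreated cells (-0.15), and the mitochondrial chaperonin HSPD1 9076 in control RNA, against 9872 in untreated cells (-0.12). A second HSPD1 probe went the other way, at 1142 in control RNA and 897 in untreated cells (0.35). The HSP70 partners DNAJB1 and DNAJB4 were the highest, at 1624 and 91.2 in control RNA, against 1385 and 79.1 in untreated cells (0.23 and 0.21). Beside this, the list's median was -0.34 for 1# minus untreated and -0.27 for 2# minus untreated, and these differences share the untreated array with the present one.

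The promoters of 3 of these genes are shown because they hold the lowest members, HSPA1B and HSP90AB1, and the highest, DNAJB1. They run from 250 bases before to 50 bases after the RefSeq start (GRCh38.p14), and capitals mark the pair of heat shock element units GAANNTTC, which reads the same on both strands. The windows are chr6:31827488-31827787 on the plus strand, chr6:44245944-44246243 on the plus strand and chr19:14529222-14529521 on the minus strand.
HSPA1B: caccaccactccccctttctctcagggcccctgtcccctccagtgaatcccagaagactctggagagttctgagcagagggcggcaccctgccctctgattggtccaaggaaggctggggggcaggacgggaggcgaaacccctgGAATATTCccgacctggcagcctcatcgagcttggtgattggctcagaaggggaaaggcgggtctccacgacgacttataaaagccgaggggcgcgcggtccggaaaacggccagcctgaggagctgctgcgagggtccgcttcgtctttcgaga
HSP90AB1: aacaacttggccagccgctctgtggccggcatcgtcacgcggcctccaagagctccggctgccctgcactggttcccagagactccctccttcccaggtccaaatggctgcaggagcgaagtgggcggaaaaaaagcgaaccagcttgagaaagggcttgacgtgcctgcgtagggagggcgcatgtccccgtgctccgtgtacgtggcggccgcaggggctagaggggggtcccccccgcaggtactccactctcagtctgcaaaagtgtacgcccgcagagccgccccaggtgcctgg
DNAJB1: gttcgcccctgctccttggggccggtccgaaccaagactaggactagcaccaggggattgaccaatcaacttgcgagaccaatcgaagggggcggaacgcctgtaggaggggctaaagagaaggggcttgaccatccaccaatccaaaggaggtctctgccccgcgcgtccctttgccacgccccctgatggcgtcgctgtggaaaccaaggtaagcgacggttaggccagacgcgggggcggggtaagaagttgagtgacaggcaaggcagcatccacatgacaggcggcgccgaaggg
HSPA1B held 1 pair, starting at position -105 from the start, and the windows of HSP90AB1 and DNAJB1 held 0. Of 18 kept members with a promoter in the table, 7 (38.9%) held the pair, against 4.95% of the 11131 kept genes with a promoter and 6.87% of all 27305 promoters. The median difference was -0.066 in the 7 with it, 6 of them lower, and -0.086 in the 11 without it, 8 of them lower. Over all kept genes, the 551 with the pair had a median of -0.0087 and those without it -0.0061. Members with and without the pair thus had medians close to each other.

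Other promoter motifs gave equally small contrasts. Searched on both strands in the same windows of 11131 kept genes, 15 motifs had medians with and without the motif that differed by -0.021 to 0.013. The low end was TGATGNAA, the CCAAT-ATF response element, held by 218 kept genes (1.96%, beside 3.67% of all promoters), with a median of -0.027. The high end was the cyclic AMP response element TGACGTCA, held by 330 kept genes (2.96%, beside 1.98% of all promoters), with a median of 0.0064. The core of the interferon element, held by 299 kept genes (2.69%, beside 3.65% of all promoters), had a median of -0.013.

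Other stress programmes lay near the background or slightly below it. Genes of the unfolded protein response had a median of -0.042 (10 higher, 13 lower of 23), with the ER chaperone HYOU1 at 208 in control RNA and 266 in untreated cells (-0.36). Genes of the ATF4 amino acid response had a median of -0.037 (10 higher, 13 lower of 23), with the cystine carrier SLC7A11 at 131 in control RNA and 165 in untreated cells (-0.34). NRF2 and peroxide defence genes had a median of -0.0032, with mitochondrial SOD2 at 2326 in control RNA and 1869.9 in untreated cells (0.31), while its second, dim probe differed by -0.039. p53 targets had a median of -0.019 (9 higher, 11 lower of 20). Their ends were the damage-binding protein DDB2 at 270.4 in control RNA and 219.7 in untreated cells (0.30) and the p53 ligase MDM2 at 637 in control RNA and 801 in untreated cells (-0.33). Metallothioneins and zinc transporters had 5 kept members and a median of -0.055, with MT2A at 3477 in control RNA and 4173 in untreated cells (-0.26).

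Several lists of the cell surface and matrix were below -0.05, and others were nearer to the background. Integrins and adhesion adaptors had a median of -0.081, with 4 higher and 19 lower of 23. The vitronectin receptor chain ITGAV read 854 in control RNA and 1089 in untreated cells (-0.35). The common beta chain ITGB1 read 8113 in control RNA and 9372 in untreated cells (-0.21), and its second bright probe differed by -0.18. Collagens had a median of -0.078, with 4 higher and 15 lower of 19, and COL6A1 read 807 in control RNA and 1047 in untreated cells (-0.38). In these lists only ITGAV and COL6A1 were at least 20% lower, and none was at least 25% higher. Protocadherins (10 higher, 27 lower of 37) and matrix proteases with their inhibitors (7 higher, 14 lower of 21) had medians of -0.056 and -0.055. Cadherins and junction genes were at -0.044, glycoproteins and proteoglycans of the matrix at -0.039, and ephrins with their receptors at -0.032 (8 higher, 8 lower of 16).

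Genes of mitosis and of the nuclear pore were also low on balance. G2/M genes, at -0.065, counted 14 higher and 21 lower of 35. These did not share a direction, since CDK1, the mitotic kinase, read 2128 in control RNA and 1776 in untreated cells (0.26), and PTTG1, securin, read 7967 in control RNA and 9670.2 in untreated cells (-0.28). A second, dimmer CDK1 probe differed by 0.074. G1/S and replication genes had a median of 0.012 (22 higher, 15 lower of 37). Nucleoporins, importins and exportins had a median of -0.056 (14 higher, 28 lower of 42), with the scaffold nucleoporins NUP160 at 2292 in control RNA and 2879 in untreated cells (-0.33) and NUP205 at 2731 in control RNA and 3387 in untreated cells (-0.31), and the importin TNPO1 at 2049 in control RNA and 1635 in untreated cells (0.33). The probes of TNPO1 disagreed, since the second, nearly as bright, read 1220 in control RNA and 1654 in untreated cells (-0.44), and the dimmer ones differed by 0.26 and 0.13. Aminoacyl-tRNA synthetases had a median of -0.055 (6 higher, 13 lower of 19).

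Replication-dependent histones, made in S phase from short genes without introns, had the highest median, 0.086, with 24 higher and 6 lower of 30 kept members of 47 measured. The median signal of the kept members was 174, with the filter at 75.6. Linker histone H1-2 read 1119 in control RNA and 970 in untreated cells (0.21), H2BC11 449.9 in control RNA and 398 in untreated cells (0.18), and H4C12, the highest, 344 in control RNA and 283 in untreated cells (0.28). H4C14 was lower at 962 in control RNA and 1017 in untreated cells (-0.080). None was at least 25% higher or 20% lower, and near-identical histone copies may share probe signal. The list's median was 0.31 for 1# and 0.035 for 2#, each minus the same untreated array. HOX genes, the positional transcription factors, had a median of 0.054 (21 higher, 6 lower of 27), with HOXD4 at 273 in control RNA and 211 in untreated cells (0.37).

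Death regulators were high on balance. The BCL2 family had a median of 0.067, with 12 higher and 5 lower of 17. The executioner BAK1 read 751 in control RNA and 582 in untreated cells (0.37), its partner BAX 537 in control RNA and 469 in untreated cells (0.19), and the survival protein MCL1, which binds BAK1, 510.4 in control RNA and 415 in untreated cells (0.30). The sensor BMF was lowest at 165 in control RNA and 195 in untreated cells (-0.24). The second MCL1 probe, about as bright, differed by only 0.083. Caspases and their inhibitors had a median of 0.067 (11 higher, 7 lower of 18), with the initiator CASP8 at 196 in control RNA and 149 in untreated cells (0.40). DIABLO, which blocks the inhibitors, read 2237 in control RNA and 1852 in untreated cells, and its 2 bright probes both differed by 0.27.

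Genes of the proteasome, the ribosomes and the respiratory chain had medians slightly above 0. Proteasome subunits had a median of 0.058 (28 higher, 9 lower of 37), with the catalytic subunit PSMB6 at 6797 in control RNA and 5083 in untreated cells (0.42). Mitochondrial ribosomal proteins had a median of 0.052 (53 higher, 24 lower of 77), respiratory chain and ATP synthase subunits 0.045 (45 higher, 22 lower of 68) and cytosolic ribosomal proteins 0.035 (41 higher, 25 lower of 67). In these 4 lists, the members at least 25% higher were PSMB6 and RPL27A at 483 in control RNA and 376 in untreated cells (0.36), and the one at least 20% lower was RPL10A at 2363 in control RNA and 2958 in untreated cells (-0.32). Other assemblies did not share this, as the chaperonin TRiC with prefoldin had a median of -0.00099 (6 higher, 6 lower of 12). Ribosome biogenesis factors had a median of -0.012 (14 higher, 22 lower of 36), with GAR1 at the top and the helicase DDX21 at the bottom, at 4157 in control RNA and 5314 in untreated cells (-0.35). For mitochondrial ribosomal proteins, the medians of 1# and 2# minus untreated were -0.26 and -0.17.

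Some large families lay at the background. Numbered zinc finger genes had a median of -0.0025 (182 higher, 184 lower of 367 kept members). RAB GTPases had 0.0014 (26 higher, 24 lower of 51). Solute carriers had -0.022 (114 higher, 152 lower of 266) and transmembrane (TMEM) genes 0.017 (96 higher, 74 lower of 170). Kinesins and dyneins were at -0.035 (17 higher, 27 lower of 44) and Kruppel-like factors at 0.044 (9 higher, 5 lower of 14). Protocadherins and HOX genes, given above, lay farther from it. Housekeeping genes used as loading controls had an SD of 0.146 over 13 kept members, beside 0.129 in the brightest of the 10 groups of all genes. Within 1.1-fold lay 69.2% of them, beside 73.0% of that group. RPL13A read 16185 in control RNA and 13769 in untreated cells (0.23), YWHAZ 14887 in control RNA and 18692 in untreated cells (-0.33) on its bright probe, and ACTB 25207 in control RNA and 27524 in untreated cells (-0.13). Of YWHAZ, 2 much dimmer probes differed by 0.19 and 0.14, the other way. The 3 ACTB probes differed by -0.13, 0.023 and 0.20. MIF, its homolog DDT and their receptors had a median of -0.029 over 10.

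The lists that were high tended to hold short genes and those that were low long ones, so the difference was set against genomic length in the RefSeq annotation. This relation was noticed after the list values were seen. In 5 equal groups of 13742 kept genes, the median difference was 0.022 for the shortest (0.067 to 8.15 kb), then 0.012, 0.000, -0.023 and -0.038 for the longest (88.8 to 2474 kb). Genes higher in control RNA made up 56.3% of the shortest group and 37.2% of the longest. At least 25% higher were 1.60% of the shortest and 0.655% of the longest, and at least 20% lower were 0.364% and 1.35%. Across 11131 genes the correlation with log2 length was -0.17 (Pearson) and -0.18 (Spearman), with 1 array a side behind every point. For comparison, the medians of 1# minus untreated were -0.025 in the shortest group and 0.076 in the longest, and those of 2# minus untreated -0.0015 and 0.042, again with the untreated array in common.

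**Figure D5:**
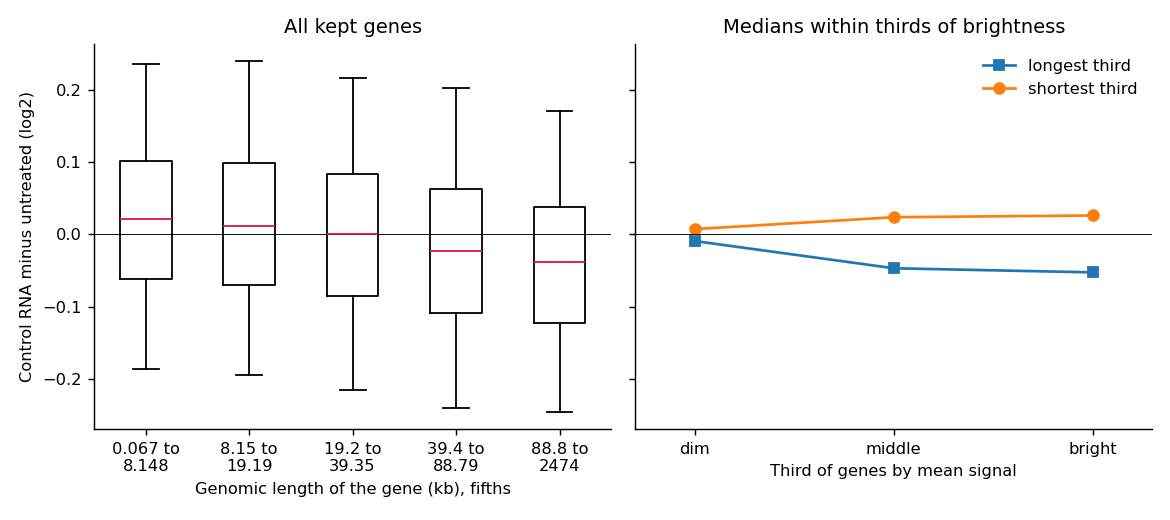
Left, log2 difference of control RNA minus untreated in 5 equal groups of kept genes by genomic length (box, quartiles; red line, median; whiskers, percentiles 5 to 95). Right, median difference of the longest (squares) and shortest (circles) of 3 length groups within 3 groups of mean signal. Medians fall from 0.022 to -0.038 with length, and the 2 length groups part at middle and bright signals.

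The relation to length was present at middle and high brightness. Within 3 groups of mean signal, the longest and shortest of 3 length groups had medians of -0.0091 and 0.0075 among dim genes, -0.047 and 0.024 at middle signals, and -0.052 and 0.026 among bright genes. It was also present within 3 groups of promoter GC content, with medians of -0.030 and 0.015, -0.037 and 0.025, and -0.034 and 0.016. Promoter GC content alone showed no such course, with medians of 5 groups between -0.011 and -0.0010. Its correlation across genes was -0.0019, that of CpG count -0.012 and that of log2 mean signal -0.027. RNA quality was not measured on these arrays, so its part in the relation to length was not tested.

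Taking out the length relation brought 19 of the 76 list medians nearer to 0 by more than 0.01 and took 19 farther from it by more than 0.01. In 38 the distance from 0 changed by no more than 0.01, though some of these changed sign. Collagens, with a median length of 109 kb, had a median of -0.078, and -0.035 once a running median over length was subtracted. Histones, with a median length of 0.503 kb, had 0.086, and 0.057 after this step, and cytosolic ribosomal proteins had 0.035 and then 0.015. Heat shock genes had -0.086 and then -0.079. Integrins had -0.081 and then -0.089, sterol sensing genes -0.087 and then -0.091, and proteasome subunits 0.058 and then 0.052. Farther from 0 went the BCL2 family, with 0.067 and then 0.090, metallothioneins, with -0.055 and then -0.082, aminoacyl-tRNA synthetases, with -0.055 and then -0.070, and ATF4 genes, with -0.037 and then -0.060.

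By chromosome, with no allowance for length, medians ran from -0.029 on chromosome 5, over 628 genes, to 0.022 on chromosome 22, over 335 genes. On chromosome 5, 60.2% of genes were lower in control RNA, beside 51.9% of all kept genes. On chromosome 22, 54.6% were higher, beside 47.9% of all. By gene type, 477 long noncoding RNAs had a median of -0.015, 13084 protein-coding genes -0.0057 and 27 small nucleolar RNAs 0.085, with 16 of the 27 higher in control RNA and an SD of 0.194.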

How the data were processed

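Total RNA of HEK293 cells was amplified, labelled with biotin and hybridised to 4 Illumina Human-6 arrays, per the labels' protocols. Samples were grouped by title. The sample tables deposited by the authors hold 1 linear intensity per probe, and the tool named in the submitters' processing notes is BeadStudio, with no version. The smallest intensity was 39.8 and medians ran from 71.9 to 78.5, so background was not subtracted and arrays were not scaled. The deposited value table of the series holds normalized intensities of the same arrays (median 73.8 in each column, method not given in the sources used here). Its identifiers stand 1 row off from row 19832 on, so it was matched by position and used as an alternative.

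Of 48701 probes, 23687 had 1 gene in the platform annotation, 35 several and 24979 none listed. Symbols were updated through Entrez identifiers to RefSeq (GRCh38.p14), where 23651 of these probes matched, and lengths and promoters came from the same annotation. Intensities were quantile-normalized over the 4 arrays, floored at 32 (0 values were below) and set to log2. A gene is shown through its brightest probe, by mean signal. Genes with a mean signal above the median probe (75.6) were kept, 13755 of 18774. Python 3.11.15 with numpy 2.4.6 and pandas 2.3.3 was used, and limma 3.58.1 in R 4.3.3 for the normexp alternative (offset 50). The steps were tested on simulated data with 2-fold changes put in. That does not bear on shifts as small as the list medians.

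With 1 array per group no test was made, and the number of arrays limits the precision. The genes named are MIF, the 5 brightest, the 10 highest and 10 lowest (placeholder names were passed over 1 time, among the lowest), any gene past 1.5-fold on all its bright probes, and the 2 highest and 2 lowest of each list. Further list members were chosen after their values were seen, for their known role. The comparison and the lists were chosen with earlier results of these data known. Alternatives were other normalizations, the value table, floors set to 16 or 64, another filter (percentile 75) or none, averaging the probes of a gene, background correction, removal of the brightness trend, and a smaller and a larger fold. Length was examined, and its trend removed, after seeing the data.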

Additional observations from a re-analysis of the deposited data

How the results depend on the processing

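Against the counts of 9 genes at least 1.5-fold higher and 4 lower in control RNA, scaling to equal medians gave 13 and 0, deposited intensities with no normalization 26 and 0, and quantile normalization of the 2 arrays alone 9 and 2. Averaging the probes of each gene gave 4 and 4. The smaller fold (25% higher or 20% lower) gave 163 and 128, and a 2-fold rule 0 and 0. At the smaller fold, genes higher in control RNA made up 56.0% of those past the fold, 80.0% with equal medians (276 and 69), 96.4% with no normalization (567 and 21) and 63.6% with the brightness trend removed (180 and 103). The median of all genes ran from -0.0091 to 0.075 over these settings, and the SD from 0.127 to 0.143.

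The medians of 76 lists, taken less that of all genes, were recomputed under 946 combinations of list and setting. All settings reused the same arrays, and the floor of 16 could change nothing, since no value was below 32. Subtracting the median of all genes also removes any shift common to all genes. The 15 lists at least 0.05 from 0 kept their sign under every setting run. Of the 61 nearer to 0, 32 changed sign under at least 1 setting. Of all the combinations, 2 moved by over 0.1, both with the filter at percentile 75: NF-kB targets to -0.088, against 0.025, and Kruppel-like factors to -0.062, against 0.049. The shortest minus the longest length group gave 0.060, and 0.042 to 0.088 under the alternatives, which were chosen after seeing the data. With averaged probes the difference of FKBP2 was 0.38, of UNG 0.43, of RAC3 0.33, of ENSA 0.34, of ASCC3 -0.17 and of ATP1B1 -0.081.

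No paired analysis was possible because control RNA and untreated cells have 1 array each. Without a second array of either group, the difference between the conditions cannot be separated from that between any 2 arrays or cultures. Background left in the intensities shrinks the differences of dim genes, and detection p-values were not used here.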

Other observations

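Probes without a gene in the annotation numbered 24979. Of these, 4 were at least 1.5-fold higher in control RNA and 3 at least 1.5-fold lower, and their log2 differences ran from -0.95 to 0.79 with a median of -0.0031.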
